A study of Rattus norvegicus with 24 samples.

Results

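The estrogen receptor gene and 9 genes that are textbook direct targets of the receptor were followed across estradiol doses in the mammary glands of young rats. The members were Esr1, Greb1, Nrip1, Xbp1, Ctsd, Pdzk1, Tff1, Tff3, Stc2 and Myc, and every probe set that the platform annotation gives to exactly 1 of them was used. This gave 11 probe sets for the 10 genes, with Greb1 measured by 2, out of 31042 probe sets tested for 14217 genes. All 11 entered every test, and no filter on low values was applied. The animals were Sprague-Dawley rats of either gender label, female or male, fitted under the skin with osmotic pumps that released 17β-estradiol, the main ovarian estrogen. The daily doses per kg of body weight were 0, 0.1, 1 or 10 µg. The pumps ran from postnatal day 21 to day 33, and the controls carried pumps that delivered a dose of 0. RNA from a pair of abdominal glands was read on Affymetrix arrays, with 3 arrays for each of the 8 groups. Whether each array stands for its own animal is not said in the labels, so the p-values speak of the spread from array to array, which may be technical in part.

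Estrogen receptor alpha, the product of Esr1, is a nuclear receptor that binds estradiol and then acts as a transcription factor. It sits on estrogen response elements, which are inverted repeats of a short half-site, or reaches DNA through other factors, and it recruits coactivators or corepressors. In the mammary gland the receptor is found in part of the luminal epithelium and in the stroma, and growth of the ducts at puberty depends on it. Most of the classic targets were first described in human breast cancer cells, whereas the samples here were whole glands in which epithelium is mixed with a fat pad.

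Values are the authors' signed log values, taken here as log2, and for each probe set they lie about 0 within each gender label, apparently by centring. A value of 0 is therefore near the middle of that probe set's values in that sex, and neither absolute levels nor levels of males against females can be read. For the same reason neither the gender labels nor the labelled tissue could be checked against marker genes. Differences between doses within a sex are kept, and each is given as a log2 difference with its standard error (SE) from a limma fit with 8 group means. The Benjamini-Hochberg adjustment covered all 31042 probe sets, and a probe set with an adjusted p under 0.05 is called higher or lower. Intervals are 95% confidence intervals of a difference.

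The 250 bases before the annotated gene start are shown for the 3 genes with a promoter entry that changed with estradiol in a comparison below, so that the sequence next to the start can be read beside the response. Of the 10 genes, 7 matched an entry of the RefSeq table for GRCr8. The letters searched were the half-site GGTCA on either strand and the full element, in which GGTCA is followed after any 3 bases by TGACC, and capitals mark each half-site found. The first is the receptor gene, the second encodes a lysosomal protease and the third a secreted glycoprotein.
Esr1 promoter, chr1:43641845-43642094, plus strand, GRCr8: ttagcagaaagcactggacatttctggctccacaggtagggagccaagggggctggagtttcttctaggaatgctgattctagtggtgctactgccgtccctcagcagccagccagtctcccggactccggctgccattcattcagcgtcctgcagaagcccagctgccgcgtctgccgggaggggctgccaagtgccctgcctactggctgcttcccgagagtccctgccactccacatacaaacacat
Ctsd promoter, chr1:206968822-206969071, minus strand, GRCr8: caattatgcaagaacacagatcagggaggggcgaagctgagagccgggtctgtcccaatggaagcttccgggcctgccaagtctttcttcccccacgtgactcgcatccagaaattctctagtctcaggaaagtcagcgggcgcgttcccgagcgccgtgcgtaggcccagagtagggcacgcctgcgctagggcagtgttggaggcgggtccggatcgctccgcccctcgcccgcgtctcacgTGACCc
Stc2 promoter, chr10:16755258-16755507, plus strand, GRCr8: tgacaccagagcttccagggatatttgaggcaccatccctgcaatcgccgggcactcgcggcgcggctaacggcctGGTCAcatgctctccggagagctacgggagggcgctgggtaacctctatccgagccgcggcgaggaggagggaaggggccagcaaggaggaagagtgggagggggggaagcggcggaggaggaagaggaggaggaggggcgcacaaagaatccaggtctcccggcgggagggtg

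The Esr1 window held no half-site. The Ctsd window held 1, starting 6 bases before the gene start, and the Stc2 window held 1, starting 174 bases before it. Among the 7 genes with an entry, 4 had a half-site within these 250 bases, Pdzk1 and Tff3 being the others, and 0 had the full element, also with up to 1 mismatch. Of 33469 promoters of the same length, 35.4% held a half-site on either strand, 0.0239% held the full element and 0.693% held it with up to 1 mismatch. A match is a run of letters in a short window, and a distant element would lie outside it.

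Some arrays stood apart in marker genes that are not mammary. The mean of 16 hepatocyte markers was above 1 on 4 arrays, namely female replicate 1 at dose 0, male replicates 2 and 3 at dose 0 and male replicate 7 at dose 1. The widest spread over probe sets was on female replicate 4 at dose 0.1 and male replicate 1 at dose 0. Skeletal muscle and T cell markers were also uneven within groups. The muscle mean ran from -3.07 to 0.54 on the female controls. The T cell mean ran from -2.66 to 0.83 on females at dose 10 and from -2.25 to 0.37 on the male controls. White adipocyte markers fell with dose in males. Their mean was between 0.39 and 0.55 on the male control arrays and between -0.81 and -0.58 at dose 10. In females it was between 0.28 and 0.51 at dose 0 and between -0.47 and -0.23 at dose 10. The female course was not steady, with group means of 0.36, -0.28, 0.10 and -0.38 at doses 0, 0.1, 1 and 10. Of 15 adipocyte genes measured, 14 were called lower at dose 10 in males and 11 in females. Mast cell genes were also called lower at dose 10, 5 of 6 in males and 4 of 6 in females, as were 3 of 5 endothelial and 3 of 6 fibroblast genes in males. Of 11 keratinocyte and hair follicle genes, 8 were called higher in males at 10, with a median difference of 1.11, and 0 in females. As a sign of RNA quality, the 3' minus 5' difference of the beta-actin probe sets was between -0.56 and -0.06 on the male controls and between -0.02 and 0.16 at dose 10. In females it was between 0.02 and 0.06 at dose 0 and between -0.05 and 0.01 at dose 10. In bulk glands, fewer cells of a type and less RNA per cell cannot be told apart. The part of these markers in the results on the members was not tested beyond the fits named below. Male adipocyte means fell into separate groups by dose, and female ones at 0 and 10 did not overlap. A fit with them as a covariate cannot tell these markers from dose. The beta-actin differences at 10 and 0 also did not overlap in either sex. Luminal means did not overlap between males at 1 and 0 or between females at 10 and 0. Fits with these covariates have the same limit there.

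At the highest dose the members split between rises, falls and no call. In females at 10 against 0, Greb1 and Stc2 were called higher and 0 member probe sets lower. In males Greb1 was called higher, and Esr1 and Ctsd lower. Against all probe sets tested, 0.812% were called higher and 1.05% lower in females, and 7.81% higher and 9.64% lower in males. The 2 calls of 11 in females stand beside 1.86% called in either direction, and the 3 of 11 in males beside 17.5%. Arrays at 10 and 0 did not overlap for 6 member probe sets in females, where this held for 19.9% of all, and for 4 in males, where it held for 37.1%. The median member difference was -0.0087 in females and 0.02 in males, against -0.0053 over all probe sets in each sex.

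**Figure D1:**
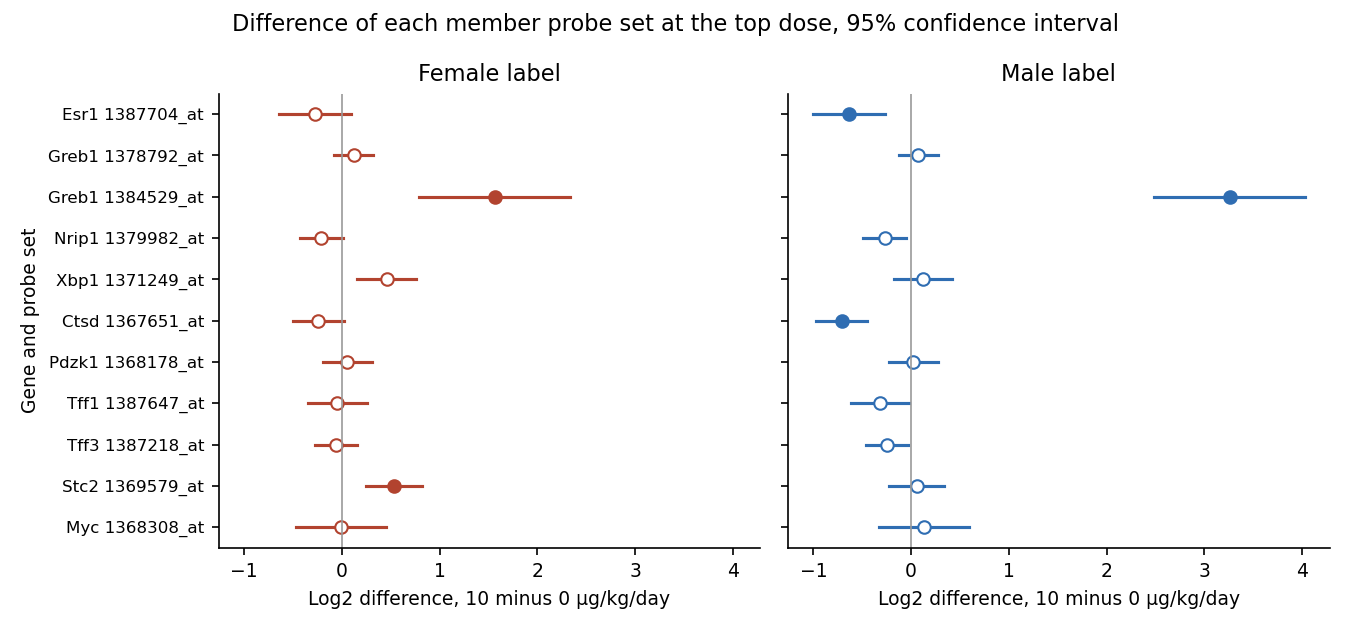
Log2 difference of each of the 11 member probe sets at 10 against 0 µg per kg per day, for females and males, with 95% confidence intervals from the limma fit. The Greb1 probe set 1384529_at lies farthest to the right in both sexes, at 1.56 in females and 3.26 in males, while Ctsd and Esr1 in males are at -0.71 and -0.64.

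Esr1, the receptor gene itself, fell with dose in males. On the male arrays the values were 0.98, 0.19 and 0.22 at dose 0, and 0.16, 0.13 and 0.28 at dose 0.1. They were 0.03, -0.03 and -0.13 at dose 1, and -0.26, -0.12 and -0.15 at dose 10. Every male array at 1 and 10 was below every male control, and the control group itself was spread by replicate 1. The difference at 10 against 0 was -0.64 ± 0.18 (SE, n = 3 arrays per group, limma adjusted p = 0.0174), a level 1.56-fold lower. At 1 against 0 it was -0.51 ± 0.18 and missed the threshold (limma adjusted p = 0.116).

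The female values of Esr1 were 0.49, 0.24 and 0.01 at dose 0, and -0.09, 0.26 and 0.09 at dose 0.1. They were 0.30, 0.04 and -0.07 at dose 1, and 0.25, -0.05 and -0.28 at dose 10. These groups overlapped throughout, and the difference at 10 was -0.27, with an interval from -0.64 to 0.10 (limma adjusted p = 0.581). The male difference minus the female one was -0.37 ± 0.25 at dose 10 (limma adjusted p = 0.435), so a sex difference in the response was not shown. The male call was lost without control replicate 1, where the difference was -0.38 (limma adjusted p = 0.127), and without replicate 10 at dose 10 (-0.60, adjusted p = 0.0526). It was also lost with a covariate (the mean of luminal, adipocyte or T cell markers, or the RNA quality measure from beta-actin), where the difference was between -0.66 and -0.38. The adipocyte and beta-actin values of males at 10 and 0 did not overlap, so those fits cannot tell them from dose. Without the 4 arrays with high hepatocyte markers, which leaves replicate 1 as the single male control, the male difference was -1.16.

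Nrip1 encodes a corepressor that the receptor both binds and induces. Its male values were 0.38, 0.17 and -0.02 at dose 0 and 0.02, -0.21 and -0.10 at dose 10, and the group means ran downward with 1 overlapping control. The difference was -0.27, with an interval from -0.49 to -0.05, and it missed the threshold over all probe sets (limma adjusted p = 0.0865). In females the values were 0.30, 0.11 and -0.00 at dose 0 and -0.05, -0.13 and -0.05 at dose 10. The difference of -0.21 had an interval from -0.43 to 0.01. Without male control replicate 3, the male difference was -0.37 and passed (limma adjusted p = 0.0336).

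Greb1, a receptor cofactor that is induced early by estradiol, had the largest difference of any member at dose 10 in both sexes. Its probe set 1384529_at read -1.07, -0.41 and -0.70 on the male control arrays and -0.81, -0.79 and -0.79 at dose 0.1. The male arrays read 0.32, 0.62 and 0.65 at dose 1 and 2.78, 2.52 and 2.30 at dose 10. The lower pair of doses overlapped, and the arrays at 1 and then at 10 each lay wholly above them. At 10 against 0 the male difference was 3.26 ± 0.37 (SE, n = 3 arrays per group, limma adjusted p = 1.59e-05), a 9.57-fold rise with an interval from 5.61 to 16.3. Of this, 2.0 ± 0.37 lay between doses 1 and 10 (limma adjusted p = 0.0217). The difference at 1 against 0 was 1.26 ± 0.37, without overlap but short of the threshold (limma adjusted p = 0.063).

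In females the same Greb1 probe set overlapped its control values at every dose but the highest. The female arrays read -0.64, 1.04 and -0.56 at dose 0, with replicate 2 high, and -0.02, -1.16 and -0.81 at dose 0.1. They read -0.56, 0.66 and -0.19 at dose 1 and 1.19, 1.67 and 1.68 at dose 10, where all 3 arrays were above all 3 controls. The rise at 10 was 1.56 ± 0.37 (SE, limma adjusted p = 0.033), or 2.96-fold with an interval from 1.73 to 5.04. The difference at 1 against 0 was 0.02. The male difference exceeded the female one by 1.69 ± 0.52 at dose 10, which missed the threshold (limma adjusted p = 0.102).

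**Figure D2:**
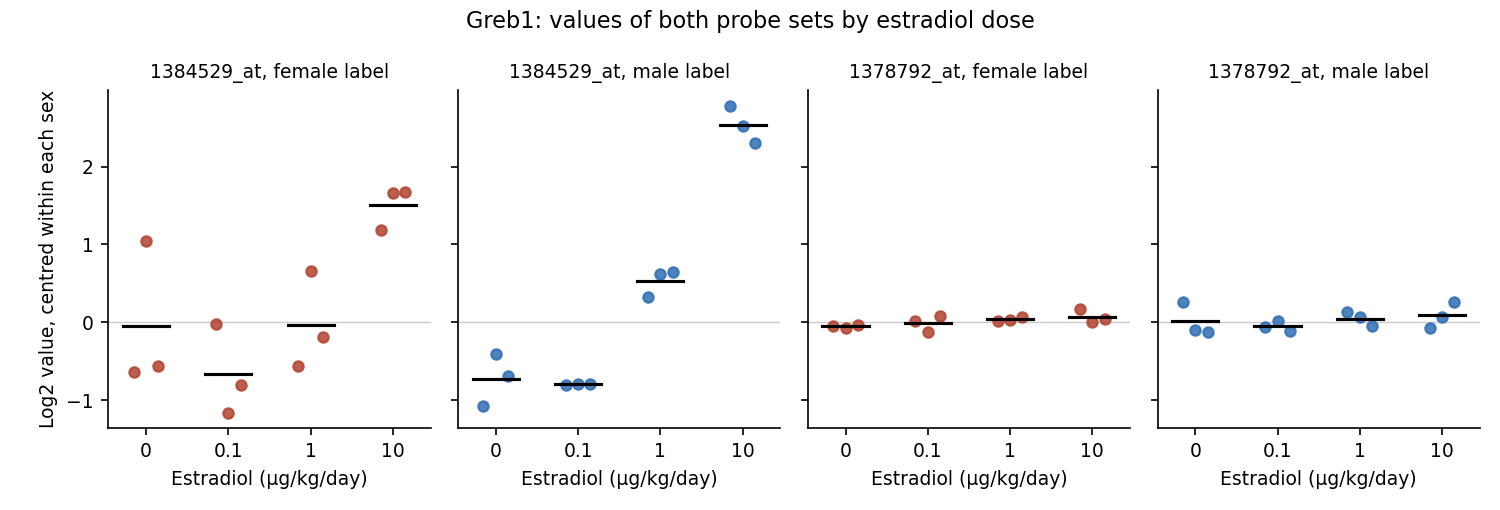
Centred log2 values of both Greb1 probe sets on every array, by gender label and by dose in µg per kg per day, with group means as bars. The 3 male arrays at dose 10 sit between 2.30 and 2.78 for 1384529_at, while 1378792_at stays between -0.13 and 0.26 in every group.

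The male Greb1 rise at 10 against 0 kept its call whichever of the 6 arrays was left out, at 3.09 to 3.42. The female call was lost when any of 5 of the 6 arrays was left out (limma adjusted p up to 0.155), the exception being control replicate 2, and the male call at 10 against 1 was lost in all 6 cases (0.0578 to 0.101). The adipocyte marker means at 10 and 0 did not overlap in either sex, so a fit with them cannot tell them from dose. With that covariate the differences at 10 were 4.06 in males and 2.07 in females, neither past the threshold (limma adjusted p = 0.183 and 0.314). Without the 4 arrays with high hepatocyte markers they were 3.60 in males, still called (limma adjusted p = 0.00132), and 1.27 in females (adjusted p = 0.217). The second Greb1 probe set, 1378792_at, did not follow the first. Its differences at 10 were 0.12 in females (interval -0.08 to 0.32) and 0.07 in males (interval -0.13 to 0.28). About their sex means the arrays had an SD of 1.23 for the first probe set, wider than 99.4% of all probe sets, and of 0.111 for the second.

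Stc2, a secreted glycoprotein of the stanniocalcin family, rose at the highest dose in females. The female values were -0.27, -0.00 and -0.08 at dose 0, 0.00, -0.02 and -0.37 at dose 0.1, and -0.21, -0.10 and 0.08 at dose 1. At dose 10 they were 0.26, 0.63 and 0.36, above every other female array. The rise at 10 against 0 was 0.53 ± 0.13 (SE, n = 3 arrays per group, limma adjusted p = 0.0466), or 1.45-fold. It was close to the threshold and was lost whichever of the 6 arrays was left out (limma adjusted p from 0.0715 to 0.195), including the female control with high hepatocyte markers.

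In males Stc2 read 0.17, -0.24 and 0.13 at dose 0 and -0.07, 0.21 and 0.09 at dose 10, and the groups overlapped. The difference was 0.06, with an interval from -0.23 to 0.34. The interaction at dose 10 was -0.48 ± 0.19 (limma adjusted p = 0.193), so the response was not shown to differ between the sexes.

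Xbp1 encodes a transcription factor of the unfolded protein response and of secretory cells. Its female arrays at dose 10 read 0.64, 0.28 and 0.03, all above the controls at -0.03, -0.21 and -0.20. The difference was 0.46 ± 0.14, with an interval from 0.16 to 0.76, and it missed the threshold over all probe sets (limma adjusted p = 0.116). It passed without replicate 12 at dose 10 (0.60, limma adjusted p = 0.0431), after quantile normalization (0.45, adjusted p = 0.0354) and without the 2 widest arrays (0.46, adjusted p = 0.0496). In males it was 0.26 at dose 1 (limma adjusted p = 0.354) and 0.12 at dose 10, with an interval from -0.18 to 0.42.

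Ctsd, the lysosomal protease cathepsin D, fell in males and was the second member, after Greb1, whose call survived every left-out array. The male values were 0.11, 0.38 and 0.34 at dose 0 and -0.12, 0.21 and 0.02 at dose 0.1. They were -0.30, -0.03 and -0.12 at dose 1 and -0.48, -0.35 and -0.47 at dose 10, so the arrays at 1 and at 10 lay below all controls. At 10 against 0 the difference was -0.71 ± 0.12 (SE, limma adjusted p = 0.00074), a level 1.64-fold lower. At 1 against 0 it was -0.43 ± 0.12 and just missed the threshold (limma adjusted p = 0.061).

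In females Ctsd read 0.15, -0.02 and 0.02 at dose 0 and -0.15, -0.13 and -0.29 at dose 10, without overlap. The difference was -0.24, with an interval from -0.50 to 0.02 (limma adjusted p = 0.436). The interaction at dose 10 was -0.47 ± 0.18 (limma adjusted p = 0.169). Among 12 alternatives other than single left-out arrays, 10 kept the male call. Without the 4 arrays with high hepatocyte markers, which leaves 1 male control, the male difference was -0.54. With the adipocyte marker mean as a covariate it was -0.11 (limma adjusted p = 0.99). That fit has 1 slope for both sexes, and male adipocyte means fell into separate groups by dose. Dose and adipocyte markers cannot be told apart there.

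**Figure D3:**
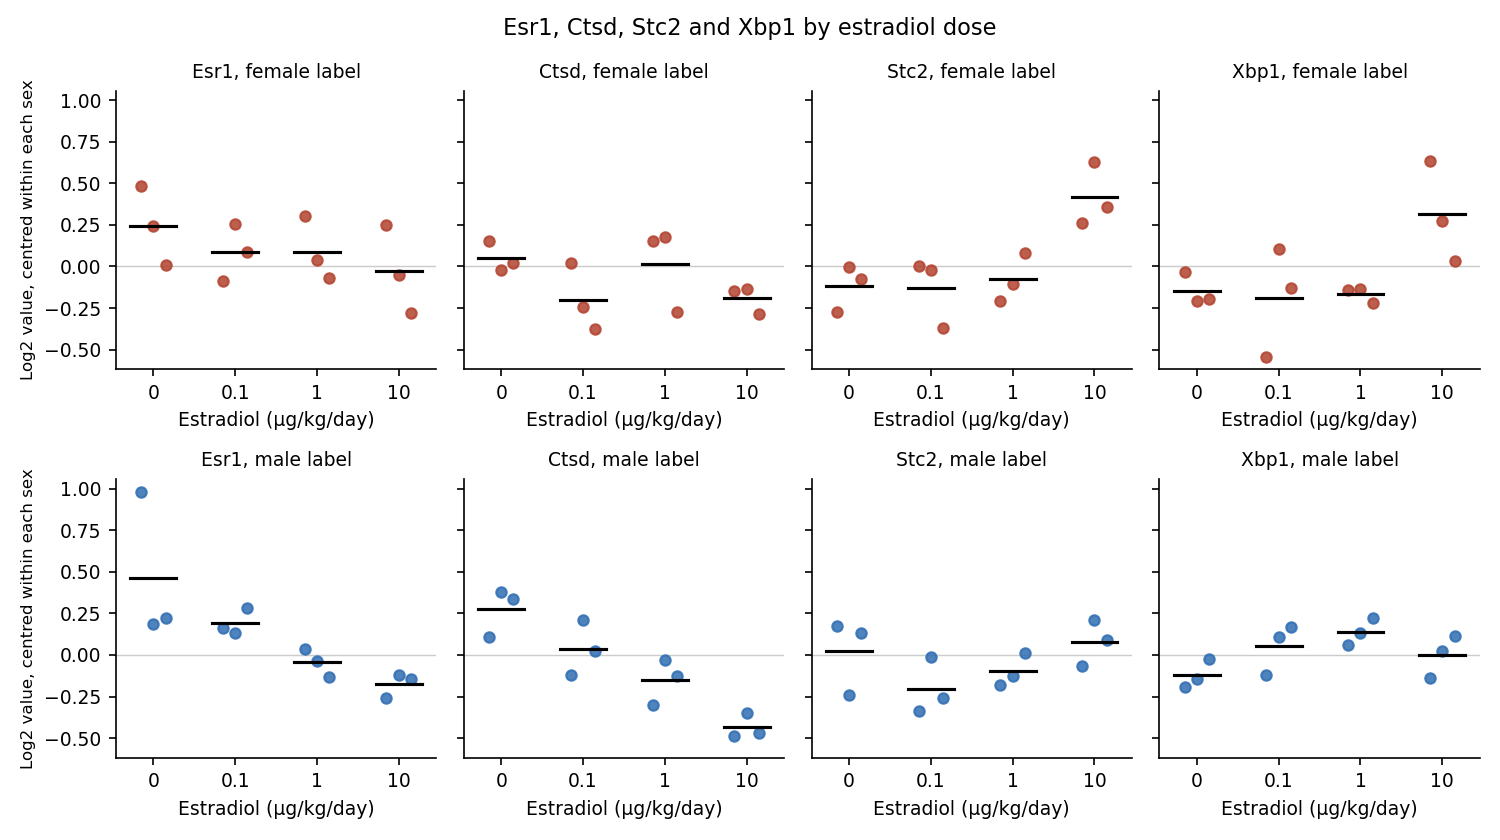
Centred log2 values of Esr1, Ctsd, Stc2 and Xbp1 on every array, by gender label and by dose in µg per kg per day, with group means as bars. Male Ctsd arrays fall from between 0.11 and 0.38 at dose 0 to between -0.48 and -0.35 at dose 10, and female Stc2 arrays at dose 10 sit between 0.26 and 0.63.

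Myc, a transcription factor that drives growth and cell division, was not called in any comparison. Its female arrays read -0.09, -0.16 and 0.02 at dose 0 and 0.03, -0.04 and -0.24 at dose 10, a difference with an interval from -0.47 to 0.45. In males the controls read -0.37, -0.02 and -0.15 and the arrays at dose 1 read 0.30, 0.07 and 0.22, all above them. That difference was 0.38 (limma adjusted p = 0.383). At dose 10 the male arrays were spread from -0.39 to 0.20 and overlapped the controls, with an interval of the difference from -0.32 to 0.60.

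The trefoil factors Tff1 and Tff3, small secreted mucosal peptides, and Pdzk1, a scaffold protein for membrane transporters, were not called either. Tff1 in males read 0.37, 0.05 and 0.07 at dose 0 and -0.12, -0.22 and -0.13 at dose 10, which did not overlap. The difference was -0.32, with an interval from -0.62 to -0.02 (limma adjusted p = 0.131), and in females it was -0.04 (interval -0.34 to 0.25). Tff3 differed by -0.24 in males (interval -0.46 to -0.03, limma adjusted p = 0.109) and by -0.06 in females (interval -0.27 to 0.16). Without male control replicate 3 the Tff3 difference was -0.33 and passed (limma adjusted p = 0.0478). Pdzk1 differed by 0.06 in females (interval -0.19 to 0.31) and by 0.02 in males (interval -0.23 to 0.27). In human breast cancer cells these 3 genes are standard induced targets, and here none of their values at 10 was called higher than at 0. The centred values give no signal level, so whether these probe sets read above background is not known.

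At the lower doses the members gave no call. In females 0 of 11 probe sets were called at 0.1 or at 1 against 0, beside 0% of all probe sets in each case. An unadjusted p under 0.05 in limma was found for 1 and 0 of 11, beside 3083 and 847 of all 31042. Groups did not overlap for 2 of 11 at dose 1, beside 8.8% of all. In males 0 of 11 were called at 0.1, beside 0% of all probe sets. At an unadjusted p under 0.05 in limma there were 0 of 11, beside 3703 of 31042. Groups did not overlap there for 1 of 11, beside 19.1% of all. At 1 against 0 in males 0 of 11 were called in limma, 3 had an unadjusted p under 0.05, and 5 had groups that did not overlap. Over all probe sets 3.63% were called there, 5735 of 31042 had an unadjusted p under 0.05 in limma, and 26.2% did not overlap. The 5 were Esr1 and Ctsd, which lay lower at dose 1, and Greb1 1384529_at, Xbp1 and Myc, which lay higher.

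At 1 against 0.1, 0 of 11 were called in either sex in limma, beside 0.0129% of all probe sets in each sex. An unadjusted p under 0.05 in limma was found for 0 in females and 1 in males, beside 2219 and 1200 of 31042. The male value for Greb1 there was 1.33 (limma adjusted p = 0.652). Among all steps between neighbouring doses, Greb1 in males at 10 against 1 was the single member call, beside 0.387% of all probe sets. In females at 10 against 1, 0 of 11 were called in limma, beside 0.267% of all probe sets. There 3 of 11 had an unadjusted p under 0.05 in limma, beside 3136 of 31042. The values there were 1.54 for Greb1 (limma adjusted p = 0.0916) and 0.49 for Stc2 (adjusted p = 0.135). The difference between the sexes in the response was not called for any member: 0 of 11 passed at each dose in limma, with 1, 2 and 3 at an unadjusted p under 0.05 at doses 0.1, 1 and 10. Over all probe sets 0%, 0.0483% and 1.28% were called in these interactions. An unadjusted p under 0.05 in limma was found there for 2266, 3059 and 5908 of 31042.

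Some related receptors, pioneer factors and coregulators changed at both higher doses in males, and 1 of them changed in females. A list of 30 such genes had 28 measured, on 53 probe sets. Here and below, a list gene with several probe sets is given by the one with the smallest p. In males at 10, 7 genes were called higher, 3 lower and 18 not, where 10.4% of all genes were called higher and 14.2% lower. Nr2f1, an orphan nuclear receptor, rose by 1.05 ± 0.13 (SE, limma adjusted p = 2.7e-05) and Esrrb, an estrogen-related receptor that does not bind estradiol, by 1.25 ± 0.19 (adjusted p = 0.000229). Tfap2c, a luminal transcription factor, rose by 1.52 ± 0.36 (limma adjusted p = 0.00755), and Gper1, a membrane receptor for estradiol, fell by 0.52 (adjusted p = 0.00551). At dose 1 in males 3 genes rose and 0 fell, beside 2.19% and 3.28% of all genes. These were Nr2f1 (0.67), Gata3 (1.34), a luminal transcription factor, and Tfap2c (1.43). In females at 10, Esrrb was the single call of the 28 genes, at 1.06 ± 0.19 (limma adjusted p = 0.00739), beside 1.17% of all genes higher and 1.46% lower. The median difference of the list at dose 10 was 0.06 in males and 0.0028 in females.

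Counted by probe set, these calls rested on few arrays. In males at 10 the 11 called were 4 without control replicate 1, 5 without replicate 11 and 7 without replicate 12 at dose 10. With the adipocyte marker mean as a covariate they were 0. In males at 1, where 1.53% of all probe sets were called higher and 2.1% lower, the 4 called were 0 without control replicate 1 or replicate 9 at dose 1, 1 without control replicate 2 or replicate 7 or 8 at dose 1, and 0 with the adipocyte covariate. The female call was lost without replicate 10 at dose 10 and with the adipocyte covariate. Adipocyte means of dosed and control arrays did not overlap in any of these comparisons, so that covariate cannot be told apart from dose. Luminal markers also moved, with 9 of 15 genes called higher in males at 1 and 5 at 10, and Gata3 and Tfap2c are luminal genes. With the luminal marker mean as a covariate the calls in this list were 0 in males at 1 and 5 in males at 10. Luminal means lay between 0.32 and 0.61 in males at 1 and between -1.04 and -0.01 on their controls. The loss at 1 therefore cannot tell luminal markers from dose.

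Other genes known to respond to estrogen rose and fell in both sexes at the highest dose. A list of 42 had 40 measured, on 62 probe sets, and its difference from the members was not tested. In males at 10, 15 were called higher, 9 lower and 16 not, beside 10.4% and 14.2% of all genes. Areg, the growth factor that carries the estrogen signal from epithelium to stroma, rose by 5.35 ± 0.44 (SE, limma adjusted p = 1.03e-06), and Pgr, the progesterone receptor, by 2.93 ± 0.32 (adjusted p = 1.36e-05). Rerg, a small GTPase regulated by estrogen, rose by 2.17 ± 0.21 (limma adjusted p = 4.58e-06), and Cxcl12, a stromal chemokine, fell by 0.85 (adjusted p = 2.33e-05). At dose 1 in males 7 genes rose and 0 fell, beside 2.19% and 3.28% of all genes. Among them were Areg (3.18 ± 0.44), Pgr (1.75 ± 0.32), Prlr, the prolactin receptor (1.56 ± 0.26), and Wnt4 (1.29 ± 0.22), a ligand that progesterone induces. Greb1, at 1.26 in the same comparison, was the member nearest to these sizes.

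In females at 10, 3 of the 40 were called higher, 2 lower and 35 not, beside 1.17% and 1.46% of all genes. Pgr rose by 1.42 ± 0.32 (SE, limma adjusted p = 0.0281) and Tpd52l1 by 1.16 ± 0.24 (adjusted p = 0.019). Igf1, a growth factor of the stroma, fell by 0.75 (limma adjusted p = 0.00996), and the chemokine Cxcl14 by 0.88 (adjusted p = 0.0213). Igf1 has 3 probe sets and Cxcl14 has 2, and 3 of these were called lower. The response differed between the sexes at dose 10 for 4 genes of this list, 2 in each direction, where 0.598% of all genes had a higher male difference and 1.4% a lower one. Areg (5.15 ± 0.63, limma adjusted p = 0.000652) and Rerg (1.40 ± 0.30, adjusted p = 0.0272) had the higher difference in males. Igfbp5 (-1.63 ± 0.30, limma adjusted p = 0.0174) and Cxcl12 (-0.61 ± 0.14, adjusted p = 0.039) had the lower difference there. For Areg this was nearly the whole male rise of 5.35. The 6 female probe sets called became 0 without control replicate 1 or replicate 10 at dose 10, and 1 to 3 without replicate 11 at dose 10 or control replicates 2 or 3. The 8 called in males at 1 became 4 without control replicate 1 and 5 without replicate 9 at dose 1. With the adipocyte marker mean as a covariate 0 passed in females at 10, males at 1 and males at 10, where 32 were called without it. With the luminal mean these counts were 3, 0 and 20. Luminal means of dosed and control arrays did not overlap in females at 10 or in males at 1. Those counts cannot tell luminal markers from dose. The adipocyte means of dosed and control arrays did not overlap in any of these comparisons. A call lost with that covariate therefore cannot tell adipocyte markers from dose.

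The probe sets most like Greb1 1384529_at over the 24 arrays, by Pearson r, were those of Egfr (0.91), Extl1 (0.90), Dhrs7 (0.90), Pou6f1 (0.89) and Msln (0.87). For Esr1 they were Sdc2 (0.81), C2cd2 (0.80), Tdrp (0.80), Cdc123 (0.79) and Kctd13 (0.78). These correlations were picked as the highest of all probe sets, over arrays that share doses, and are descriptions. Egfr encodes the receptor for amphiregulin, the product of Areg. It rose by 1.33 in males and 0.58 in females at 10 against 0 (limma adjusted p = 1.1e-05 and 0.044). Egfr was picked for its likeness to Greb1, which was high at dose 10, so this rise follows in part from the choice. In females Extl1 and Msln, picked likewise, were also called higher at 10. Dhrs7 and Pou6f1 were not (limma adjusted p = 0.518 and 0.583).

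Xbp1, Ctsd and Myc followed marker genes from array to array. Xbp1 rose and fell with the mean of the luminal epithelial markers, with r = 0.89 and rho = 0.92 over the 12 female arrays (permutation p = 2e-05 and 0.00013). Over the 12 male arrays r and rho were both 0.91 (permutation p = 1e-05, the smallest that 100000 permutations can give, and 0.00015). In this family of 44 relations the adjusted p of r was 0.00044 in each sex, and that of rho 0.0022. Without the 2 arrays farthest from the median, r was 0.88 in females and 0.92 in males. About group means it was 0.87 and 0.86, so the relation was also present within dose groups and without those arrays. Outside this family, r of Xbp1 with the basal and myoepithelial markers was 0.83 in females and 0.80 in males. The relation was thus not particular to luminal markers. Myc in males followed the luminal markers more loosely, with r = 0.72 and rho = 0.82 over 12 arrays (permutation p = 0.00768 and 0.00168, adjusted 0.0422 and 0.0123). Without the 2 farthest arrays r was 0.69, and about group means it was 0.67. In females Myc gave r = 0.54 and rho = 0.42 (permutation p = 0.066 and 0.176, adjusted 0.184 and 0.478), with 0.76 about group means. Tff3 in males had r = -0.72 and rho = -0.43 with the luminal markers (permutation p = 0.00891 and 0.168, adjusted 0.0436 and 0.478). This pooled r rested on the 2 farthest arrays, since it was -0.19 without them. About group means, with those arrays kept, r of Tff3 was -0.73. Outside the family, r of Myc with the T cell markers was 0.52 in females and 0.59 in males.

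Ctsd followed the white adipocyte markers in females, with r = 0.87 and rho = 0.82 over the 12 arrays (permutation p = 0.00077 and 0.00196, adjusted 0.00565 and 0.0123). Without the 2 farthest arrays r was 0.79, and about group means it was 0.83. Outside the family, r of Ctsd with the endothelial markers was 0.70 over the female arrays. In males the adipocyte means fell into separate groups by dose, so no pooled value is given, and about group means r was -0.0015 for Ctsd and 0.04 for Greb1 1384529_at. The male relations therefore lay between dose groups and did not hold about their means. For Esr1 and Nrip1 in males r with the adipocyte markers about group means was 0.33 and 0.71.

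**Figure D4:**
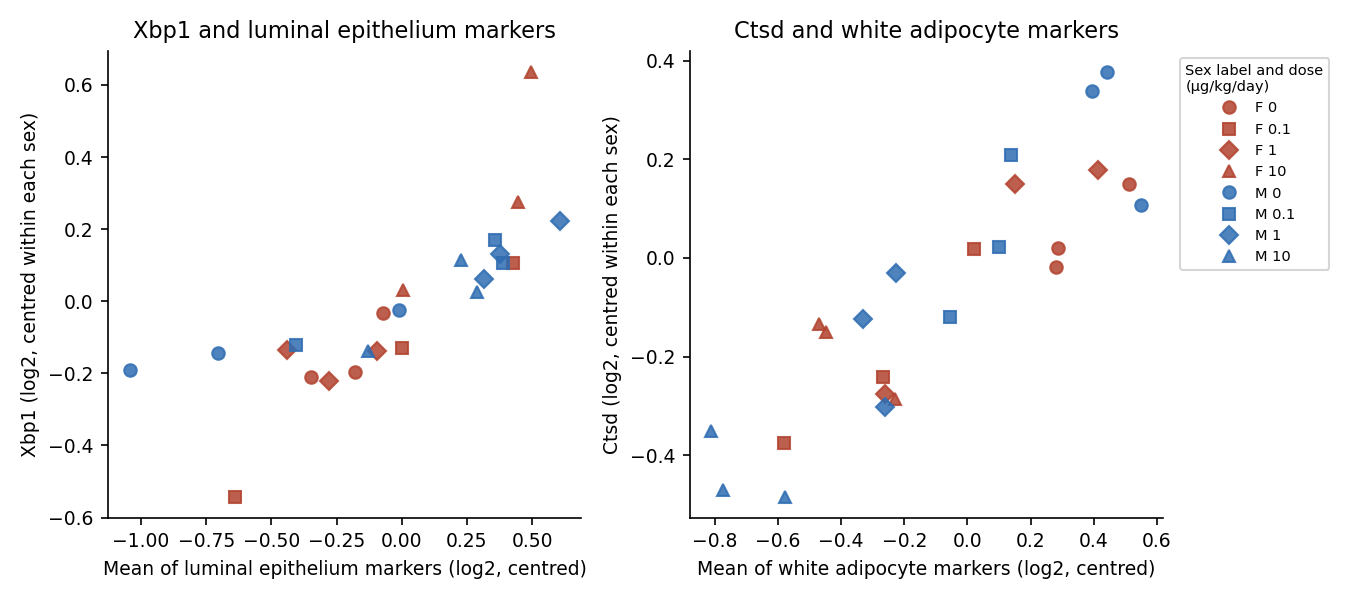
Centred log2 value of Xbp1 against the mean of the luminal epithelial markers, and of Ctsd against the mean of the white adipocyte markers, for the 12 arrays of each gender label, coloured by gender label, with a symbol for each dose in µg per kg per day. Xbp1 rises with the luminal mean in both sexes (r = 0.89 and 0.91), and the male Ctsd points fall into groups by dose.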

How the data were processed

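The deposited table holds signed log2 values per probe set, taken as log2 since their base is unstated. GCOS, the Affymetrix software, is named without a role per the submitters' processing notes, with summarization and normalization not given in the sources used here. In 45.3% of probe sets over female arrays and 41.9% over male arrays the values nearest 0 were equal and opposite within 2e-06, as centring on a median can leave them. The other probe sets did not show this. The values were therefore not shown to be centred on the median of the arrays of a sex. Array medians lay between -0.0175 and 0.0134, so nothing was renormalized. With no background signal or depth in the table, the number of arrays limits precision. Of 31099 probe sets, 57 controls were left out. By the platform annotation 20826 probe sets have 1 gene and 436 several. Groups came from the sample titles.

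The fit used limma 3.58.1 (R 4.3.3) with a mean for each of the 8 groups (lmFit and eBayes, 16 residual and 2.95 prior degrees of freedom), with Benjamini-Hochberg adjustment and a threshold of 0.05. The steps were checked on simulated data. The members and lists were chosen with earlier results of these data known. Every member probe set is described. Per list and comparison, up to 4 passing genes with the smallest p may be named, and for Esr1 and Greb1 the 5 genes with the highest r. The differences of Egfr and of the other genes most like Greb1 were looked up after their correlations were seen. Promoter windows are from RefSeq, GRCr8. Alternatives covered normalization, annotation, covariates and left-out arrays.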

Additional observations from a re-analysis of the deposited data

How the results depend on the processing

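All 6 member results called (Greb1 in 3 comparisons, Esr1, Ctsd and Stc2) kept their direction under every alternative run, and 15 of the 137 uncalled ones passed under at least 1. The members called in females at 10 against 0 numbered 2. They were 0 with only the 12 arrays of a sex, without the 4 arrays with high hepatocyte markers, with hepatocyte and muscle covariates and with the adipocyte covariate. They were 1 with a trended robust fit, a luminal or beta-actin covariate, or unadjusted p with a difference of 1 unit. In males at 10 against 0 the 3 called were 0 with the adipocyte covariate and 1 by unadjusted p with 1 unit. In males at 10 against 1 the 1 called was 0 after quantile normalization, with a trended robust fit, without the hepatocyte arrays, and with the adipocyte or beta-actin covariate. In males at 1 against 0 the count of 0 was 2 with 12 arrays of a sex or array weights, and 1 without the hepatocyte arrays, without the 2 widest arrays, or by unadjusted p with 1 unit. Array weights gave 1 for females at 0.1 against 0 and 2 for the interaction at 10 (Greb1 1.80, limma adjusted p = 0.033, and Ctsd -0.49, adjusted p = 0.0336). The interaction at 10 gave 1 without the hepatocyte arrays (Esr1 -1.01, limma adjusted p = 0.0456) and by unadjusted p with 1 unit, as did the interaction at 1 by the latter. Females at 10 against 1 gave 1 without the 2 widest arrays or by unadjusted p with 1 unit, and males at 1 against 0.1 gave 1 with 12 arrays of a sex or by unadjusted p with 1 unit. Leaving out each array in turn gave 0 to 1 in females at 10 against 0, 2 to 5 in males, and 0 in all other comparisons. For other estrogen-responsive genes, the alternatives that moved the count of probe sets by over 1.5 times gave 0 to 12 in females at 10 (6 as reported), 0 to 17 in males at 1 (8) and 0 to 20 in males at 10 (32). For receptors and coregulators they gave 0 to 2 (1), 0 to 2 (4) and 0 to 7 (11), left-out arrays included. If the deposited values were natural logs, the male Greb1 fold at 10 would be 26 in place of 9.57. Removing the 2 widest arrays and the T cell covariate were chosen after seeing the data. The hepatocyte alternative leaves 1 male control, assumed to vary like the other groups.

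Replicate numbers are shared between the sexes and not between doses, so no paired analysis was possible within a sex. Over 12 same-numbered pairs the correlation of deviations ran from -0.48 to 0.59, with 5 above 0.1. All 3 pairs at dose 0.1 (0.44 to 0.59) and 2 of 3 at dose 10 were above it, and 0 at doses 0 and 1, so the numbers were not taken to pair samples throughout. With the replicate number as a block, 0 members were called in the interactions at 0.1, 1 and 10.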
